A study of Mus musculus with 32 samples.

Results

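The 10 genes described here carry out classical MHC class I peptide loading: H2-K1, H2-D1, B2m, Tap1, Tap2, Tapbp, Tapbpl, Nlrc5, Erap1 and Pdia3. They were taken by symbol from a merged table of 54429 gene symbols, where each symbol was found once, and all 10 passed the filter on low counts that left 15254 genes. Bulk RNA-seq was done on Veravec cells, a line of mouse lung endothelial cells (ECs), in 8 groups of 4 libraries, 32 in all. Cells were transfected with control siRNA (si-control) or with siRNA against Dnmt1 (si-dnmt), which encodes the maintenance DNA methyltransferase. Each siRNA group was then left without cytokine or given TNF, IFN or TNF + IFN, where TNF is TNFα at 10 ng/mL and IFN is IFNγ at 1000 U/mL, for 16 h. Every group is thus a transfected culture of 1 cell line, silencing is transient, and no group without siRNA was used here. The treatment label of the si-dnmt + TNF libraries spells the siRNA differently, and they were taken as 1 group with the titles.

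Class I molecules show peptides from inside the cell to CD8+ T cells. A heavy chain (H2-K1 or H2-D1 here) pairs with the light chain β2-microglobulin (B2m) in the endoplasmic reticulum, and peptides reach it through the transporter that Tap1 and Tap2 form together. Tapasin (Tapbp) and ERp57 (Pdia3) hold the empty heavy chain at the transporter, TAPBPR (Tapbpl) edits the peptide off the transporter, and the aminopeptidase Erap1 trims peptides to length. NLRC5 (Nlrc5) is the transactivator of class I genes, and both interferon and TNF, the latter through NF-κB, are known to act on their promoters. Resting ECs carry class I molecules and raise them under inflammatory cytokines.

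The promoters of the genes differ in their exact matches to 2 motif strings. For this, 250 bases upstream of the annotated start are shown for the heavy chains, B2m and, for contrast, Tap1 and Pdia3. The sequences are from RefSeq on GRCm38.p6, 5′ to 3′ on the gene's own strand, and capitals mark matches to the interferon-stimulated response element (ISRE, GAAANNGAAA) or to the NF-κB site (kappaB), searched on both strands.
H2-K1 (chr17:34000348-34000597, minus strand): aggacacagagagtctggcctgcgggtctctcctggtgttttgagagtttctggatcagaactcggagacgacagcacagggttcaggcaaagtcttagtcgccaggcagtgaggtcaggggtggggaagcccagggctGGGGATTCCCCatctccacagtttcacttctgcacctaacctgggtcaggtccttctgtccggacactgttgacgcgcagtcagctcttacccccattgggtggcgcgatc
H2-D1 (chr17:35262844-35263093, plus strand): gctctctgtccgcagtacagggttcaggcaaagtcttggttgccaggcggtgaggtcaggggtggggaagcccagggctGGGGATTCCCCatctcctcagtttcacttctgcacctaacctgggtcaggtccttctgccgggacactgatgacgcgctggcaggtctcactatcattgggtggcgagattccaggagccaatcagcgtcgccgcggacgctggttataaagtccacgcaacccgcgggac
B2m (chr2:122147437-122147686, plus strand): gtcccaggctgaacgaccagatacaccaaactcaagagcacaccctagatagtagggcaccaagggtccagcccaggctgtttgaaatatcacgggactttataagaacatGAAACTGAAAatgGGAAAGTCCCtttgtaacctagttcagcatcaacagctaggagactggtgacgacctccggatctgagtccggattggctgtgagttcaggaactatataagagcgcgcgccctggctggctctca
Tap1 (chr17:34187306-34187555, plus strand): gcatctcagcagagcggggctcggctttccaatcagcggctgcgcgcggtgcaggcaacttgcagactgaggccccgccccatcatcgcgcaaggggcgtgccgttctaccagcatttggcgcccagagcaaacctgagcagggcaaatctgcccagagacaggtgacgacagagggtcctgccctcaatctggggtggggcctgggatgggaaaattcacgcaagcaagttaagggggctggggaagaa
Pdia3 (chr2:121413652-121413901, plus strand): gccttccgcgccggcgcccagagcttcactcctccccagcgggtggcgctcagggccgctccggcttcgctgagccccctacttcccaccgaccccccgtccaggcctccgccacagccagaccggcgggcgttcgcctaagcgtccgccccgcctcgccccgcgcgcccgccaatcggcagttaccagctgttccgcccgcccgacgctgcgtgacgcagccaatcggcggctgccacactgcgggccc
H2-K1 and H2-D1 share a run of 47 bases that holds the kappaB match, and the run begins at position -141 from the start site in H2-K1 and at -201 in H2-D1. The stretch in capitals holds 2 overlapping matches in each gene. H2-K1 has a further annotated start nearby, and the window printed is that of the first one listed. B2m has an ISRE match that begins at -139 and a kappaB match at -126. Tap1, Tapbp, Erap1 and Pdia3 hold no exact match to either string in this window. Among 32851 RefSeq windows of this length, 2.98% hold the ISRE and 7.25% the kappaB motif. The members' windows have 8 to 34 CpG dinucleotides, the sites that DNMT1 methylates, with the highest count in Pdia3, where the median over the RefSeq windows is 6. A match is only a description of these letters, and Tap2, Tapbpl and Nlrc5 are named without a window. The search took exact strings only and did not look for near matches. A window without an ISRE match, as in H2-K1 and H2-D1, is therefore not shown to lack an interferon element.

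Library totals ranged between 17362546 and 33500030 counts, and the members held 252 to 103430 counts each in a library. Counting error weighs more at the lower counts, and its part in the spread between replicates was not computed. Levels are given in CPM, a library's counts scaled to a common depth with edgeR's TMM factors. Dnmt1 was lower in si-dnmt in every state, by 13.5-fold to 16.9-fold in the fit (adjusted p from 2.72e-08 to 4.77e-08), and no si-dnmt library reached the lowest si-control library (5.11 to 17.3 CPM against 86.5 to 211 CPM). The EC markers Cdh5 and Pecam1 were at 646 CPM or more in every library, and the leukocyte marker Ptprc was at 0.134 CPM or less. Kdr, Erg, Tie1 and Emcn were at 136 CPM or more. The other EC markers listed were lower, with Tek at 15.5 to 117 CPM and Cldn5 at only 0.116 to 42.3 CPM. Some marker sums moved with the groups. The 8 EC markers summed to 4970 to 7790 CPM in si-control without cytokine and to 3080 to 3910 CPM with TNF + IFN. The 8 leukocyte markers, of which Cd3e had no count, summed to 191 to 227 CPM in si-control and 101 to 169 CPM with TNF + IFN, nearly all from Cd68 and Lyz2. The 5 fibroblast markers went from 1.64 to 2.64 CPM in si-control to 14.7 to 55.9 CPM with TNF, mostly Dcn, and 6 epithelial markers stayed at 22.6 CPM or less, with Sftpc at 0 in all libraries. The 5 pericyte and smooth muscle markers, mostly Acta2, summed to 7.69 to 69.4 CPM over the si-control groups and 39.3 to 230 CPM over the si-dnmt groups. The share of counts from mitochondrial genes, which can reflect RNA quality, was 4.43 to 5.77% in si-control and 3.27 to 4.03% in si-dnmt without cytokine. In the same order it was 3.90 to 4.51% and 2.685 to 3.385% with TNF, and 3.25 to 4.89% and 2.40 to 3.24% with IFN. With TNF + IFN it was 2.73 to 3.65% and 2.13 to 2.64%. It was thus lower in si-dnmt in every cytokine state, with no overlap. The part of these shifts in the results was not tested. In bulk libraries, fewer cells of a type and less RNA per cell cannot be told apart.

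Within groups, replicates 1 and 2 stood apart from replicates 3 and 4, and the labels name no day or batch for this. For the members, the mean of replicates 1 and 2 was higher in 78 of 80 combinations of gene and group (ratio 0.685 to 2.11, median 1.38). The 2 exceptions were Tap1 (0.685) and Tap2 (0.955), both in si-control without cytokine. Both of replicates 1 and 2 lay above both of replicates 3 and 4 in 72 of 80. Neither count was made over all genes, so this direction is not shown to be particular to the members. Dnmt1 was lower in si-dnmt by 7.59-fold to 10.1-fold in replicates 1 and 2 and by 23.2-fold to 35.7-fold in replicates 3 and 4. Same-numbered libraries of all groups moved together, though no more than the 2 numbers of a set did. Each comparison was therefore also fitted with the replicate number as a block, and its result is printed where it changes a call.

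**Figure D1:**
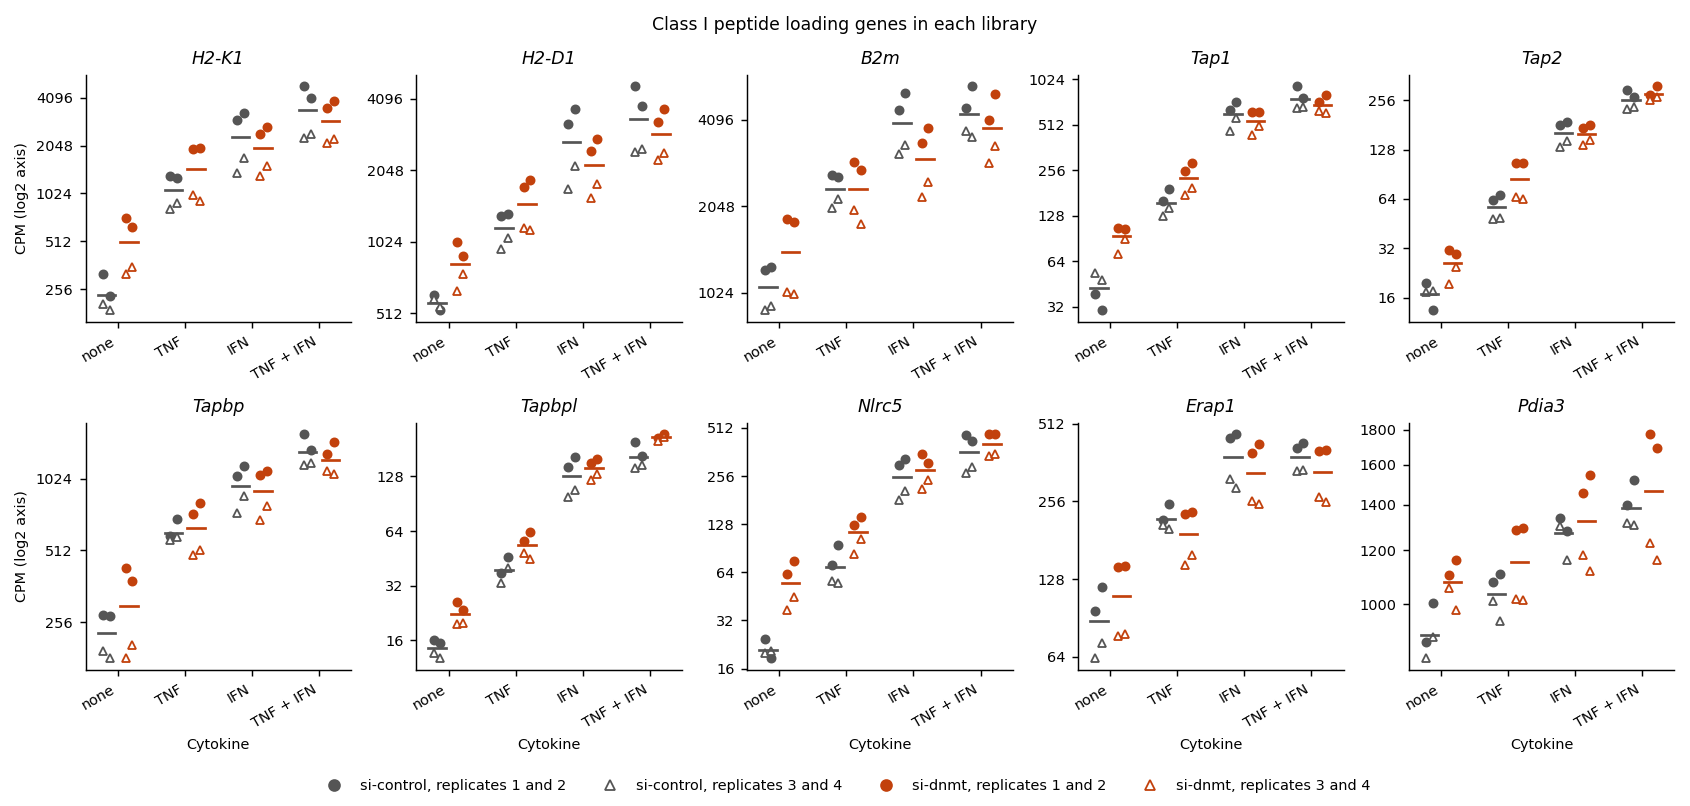
CPM on a log2 axis of the 10 genes in each of the 32 libraries, by cytokine and siRNA (points: libraries, filled circles for replicates 1 and 2, open triangles for replicates 3 and 4; short lines: means of 4). Every gene is lowest in si-control without cytokine, and the gap between the siRNAs is widest there for H2-K1, Tap1 and Nlrc5.

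The members took 0.324% of all counts in si-control and 1.41% in si-control + TNF + IFN (group means). All 10 genes had their lowest mean in si-control without cytokine, and 9 of 10 had si-dnmt without cytokine next, the exception being Pdia3. The highest mean was in si-control + TNF + IFN for 5 genes (H2-K1, H2-D1, B2m, Tap1 and Tapbp), in si-dnmt + TNF + IFN for 4 (Tap2, Tapbpl, Nlrc5 and Pdia3) and in si-control + IFN for Erap1. The ratio of highest to lowest mean was 19.5 for Nlrc5, 17.7 for Tap1, 16.5 for Tap2, 14.6 for Tapbpl, 14.5 for H2-K1, 5.91 for H2-D1, 5.73 for Tapbp, 4.32 for Erap1, 4.01 for B2m and 1.62 for Pdia3. Ranking the 8 groups by mean gives 7 neighbouring pairs for each gene, 70 in all, and the libraries of 52 of these pairs overlapped. For H2-K1, si-control, si-dnmt and si-control + TNF were apart from each other, and no neighbours above them were.

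Per kilobase of annotated exon (GENCODE M21), B2m was the most abundant member without cytokine in si-control, at 1248 CPM per kb, against 288 for Pdia3, 219.6 for H2-D1, 80.5 for H2-K1 and 63.5 for Tapbp. Erap1 (12.1), Tap1 (7.77), Tapbpl (6.14), Tap2 (4.48) and Nlrc5 (2.46 CPM per kb) made up the lower end. With TNF + IFN the heavy chains passed Pdia3, with 1164 CPM per kb for H2-K1 and 1299 for H2-D1 against 441 for Pdia3, while Nlrc5 was still the lowest at 42.5 CPM per kb. The sources used here do not name the annotation behind the counts, so these lengths are approximate. Exons of other genes cover 29% of the exon length of Tapbp, 18.5% of Tap2, 11.5% of Erap1 and 3.87% of Tap1, and H2-K1 and H2-D1 are close paralogs, so some of their reads may be shared or lost.

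The first question was how far each cytokine alone moves these genes in ECs with DNMT1. The 3 comparisons in si-control share the libraries without cytokine, so they are given side by side. Calls are genes whose adjusted p was under 0.05 in edgeR's quasi-likelihood test over all 15254 genes. TNF raised 9 of the 10 members, where 30.8% of all genes tested were called in either direction, IFN raised 10 of 10 (14.5% of all genes) and TNF + IFN raised 10 of 10 (45.2%). The members' median log2 fold change was 1.42 with TNF, 2.70 with IFN and 3.04 with TNF + IFN, and that of all genes was within 0.01 of 0 in each. In all 29 of these calls every treated library lay above every untreated one. Such separation was not counted over all genes, so it is not shown to be particular to the members.

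The heavy chains rose unequally. H2-K1 (ENSMUSG00000061232) measured 317, 232, 207 and 188 CPM in replicates 1 to 4 without cytokine, and 1319, 1279, 813 and 898 CPM with TNF. With IFN it measured 2963, 3272, 1381 and 1719 CPM. With TNF + IFN the libraries were at 4872, 4107, 2286 and 2414 CPM. The log2 fold change under TNF was 2.19 ± 0.35 (SE, adjusted p = 2.13e-05). Under IFN it was 3.30 ± 0.37, and under both cytokines 3.85 ± 0.38, at adjusted p of 6.31e-08 and 1.57e-09. H2-D1 (ENSMUSG00000073411) began higher, at 611, 525, 584 and 545 CPM, and went to 955 to 1337 CPM with TNF, 1709 to 3689 CPM with IFN and 2437 to 4640 CPM with TNF + IFN. Its log2 fold changes were smaller, at 1.04 ± 0.24, 2.24 ± 0.25 and 2.56 ± 0.25, where the highest adjusted p was the 0.0016 of TNF. The light chain B2m (ENSMUSG00000060802) measured 1226, 1260, 888 and 918 CPM without cytokine and 3106 to 5089 CPM with IFN, a log2 fold change of 1.90 ± 0.24 (adjusted p = 5.1e-07).

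Because the heavy chains started apart, the ratio of H2-K1 to H2-D1 was followed within each library. In si-control it was 0.519, 0.442, 0.355 and 0.346 without cytokine and 0.845 to 1.01 with TNF, 0.808 to 0.925 with IFN and 0.938 to 1.08 with TNF + IFN. The cytokine libraries all lay above the untreated ones, and H2-K1 came close to the CPM of H2-D1. In si-dnmt without cytokine the ratio was 0.703, 0.713, 0.509 and 0.475, higher than in si-control in each of the 4 same-numbered pairs, while replicates 3 and 4 lay within the si-control range. The log2 ratio in si-control was higher by 1.16 with TNF, 1.06 with IFN and 1.29 with TNF + IFN, each with p = 0.0286 in a two-sided exact permutation test, the smallest p that 4 against 4 libraries allow, and 0.0602 after adjustment over 40 tests of such ratios. In si-dnmt the shifts were 0.69, 0.62 and 0.76 with the same p. The ratio was 0.53 higher on the log2 scale in si-dnmt than in si-control without cytokine (exact permutation p = 0.0857, adjusted p = 0.143). Within the pairs the log2 differences were 0.44 to 0.69 (two-sided exact permutation of the signs, p = 0.125, the smallest that 4 pairs allow). Depth cancels in this ratio, but reads that fit both genes could move it. H2-K1 also gained on B2m without cytokine, from 0.259, 0.184, 0.234 and 0.205 of its CPM in si-control to 0.389, 0.351, 0.311 and 0.349 in si-dnmt. The libraries did not overlap (log2 difference 0.67, exact permutation p = 0.0286, adjusted p = 0.0602). Within the pairs, the exact permutation of the signs gave p = 0.125. With TNF, IFN and TNF + IFN the log2 differences between the siRNAs were 0.40, 0.22 and -0.015.

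With TNF + IFN, the transporter genes and Nlrc5 had the steepest rises, while with TNF alone H2-K1 rose more than they did. Tap1 (ENSMUSG00000037321) measured 39.0, 30.2, 53.1 and 48.0 CPM without cytokine and 638, 723, 466 and 567 CPM with IFN. With TNF it was at 127 to 193 CPM and with TNF + IFN at 656 to 925 CPM, and none of these ranges overlapped except those of IFN and TNF + IFN. Its log2 fold change was 1.87 ± 0.19 under TNF (adjusted p = 1.63e-08) and 3.81 ± 0.21 under IFN (adjusted p = 2e-14). Both cytokines together gave 4.15 ± 0.21 (adjusted p = 1.74e-15). Tap2 (ENSMUSG00000024339), the partner of Tap1 in the transporter, went from 13.4 to 19.7 CPM without cytokine to 132 to 190 CPM with IFN and 228 to 297 CPM with TNF + IFN, with log2 fold changes of 3.26 ± 0.19 and 3.92 ± 0.19. Nlrc5 (ENSMUSG00000074151) measured 24.4, 18.5, 20.1 and 20.6 CPM without cytokine and 298, 327, 182 and 205 CPM with IFN, a log2 fold change of 3.60 ± 0.26 (adjusted p = 1.15e-11). TNF alone gave 1.73 ± 0.24 (adjusted p = 3.64e-06), and both cytokines gave 4.11 ± 0.27 (adjusted p = 4.04e-13).

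The chaperones and the trimming enzyme differed widely among themselves. Tapbpl (ENSMUSG00000038213) measured 15.9, 15.5, 13.5 and 12.7 CPM without cytokine and 143, 164, 98.9 and 108 CPM with IFN (log2 fold change 3.16 ± 0.16, adjusted p = 4.17e-15). Tapbp (ENSMUSG00000024308) rose less, from 181 to 275 CPM to 734 to 1161 CPM (2.05 ± 0.24, adjusted p = 1.4e-07). Erap1 (ENSMUSG00000021583) went from 63.0 to 119 CPM to 288 to 468 CPM (2.11 ± 0.25, adjusted p = 2.16e-07), and both cytokines together gave the same value to 2 decimals (2.11 ± 0.25). Pdia3 (ENSMUSG00000027248), whose product folds many glycoproteins besides class I, moved least. It measured 880, 1004, 834 and 897 CPM without cytokine and 945 to 1109 CPM with TNF, a log2 fold change of 0.20 ± 0.12 that was not called (adjusted p = 0.245). IFN took it to 1161 to 1337 CPM (0.49 ± 0.12, adjusted p = 0.00637), and TNF + IFN to 1307 to 1520 CPM (0.62 ± 0.12, adjusted p = 0.000182).

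The second question was whether loss of Dnmt1 alone changes these genes. Without cytokine, si-dnmt raised 5 of the 10 members, where 18.5% of all genes tested were called in either direction: H2-K1, Tap1, Tap2, Tapbpl and Nlrc5. All 10 estimates were above 0, with a median log2 fold change of 0.58 against a median of 0 to 2 decimals over all genes. The si-dnmt library was the higher one in 39 of 40 pairs of the same gene and replicate number. The 10 genes share the same library pairs, so these are not 40 separate observations. Such pairs were not counted over all genes. With the replicate number as a block all 10 members were called (32.4% of all genes in that fit).

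Nlrc5 had the largest of these rises. It measured 62.8, 75.3, 36.9 and 44.6 CPM in si-dnmt against 18.5 to 24.4 CPM in si-control, with no overlap (log2 fold change 1.39 ± 0.24, adjusted p = 0.000146). Tap1 measured 106, 105, 71.5 and 89.6 CPM against 30.2 to 53.1 CPM, again apart (1.13 ± 0.19, adjusted p = 8.41e-05). H2-K1 was at 717, 634, 321 and 354 CPM against 188 to 317 CPM, where replicate 3 lay just above the highest control library (1.10 ± 0.34, adjusted p = 0.0222). Tapbpl was at 26.1, 23.4, 19.7 and 20.0 CPM against 12.7 to 15.9 CPM (0.63 ± 0.15, adjusted p = 0.00324). Tap2 was at 31.1, 29.5, 19.4 and 24.5 CPM against 13.4 to 19.7 CPM, where 1 library of each group overlapped (0.63 ± 0.18, adjusted p = 0.0126). Leaving out replicate 3 or 4 of si-control, or 1 or 2 of si-dnmt, ended the H2-K1 call, and leaving out replicate 2 of si-control ended that of Tap2. Relative to Tap1, Tap2 was at 0.505, 0.442, 0.324 and 0.363 of its CPM in si-control and at 0.292, 0.280, 0.272 and 0.274 in si-dnmt. The 4 libraries of si-dnmt thus lay below those of si-control (log2 difference -0.53, exact permutation p = 0.0286, adjusted p = 0.0602). Within the pairs, the exact permutation of the signs gave p = 0.125, the smallest possible. With TNF + IFN the same ratio went the other way, at 0.379 to 0.441 in si-dnmt against 0.321 to 0.349 in si-control. The log2 difference was 0.24 (exact permutation p = 0.0286, adjusted p = 0.0602, within the pairs p = 0.125). With TNF the log2 difference was 0.02 (exact permutation p = 0.857) and with IFN 0.11 (p = 0.0857).

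The other 5 members had smaller estimates. H2-D1 was at 1020, 890, 631 and 744 CPM against 525 to 611 CPM, a log2 fold change of 0.54 ± 0.24 (adjusted p = 0.127, with the block 0.49, adjusted p = 0.0026). B2m was at 1844, 1806, 1033 and 1015 CPM against 888 to 1260 CPM (0.41 ± 0.23, adjusted p = 0.233, with the block 0.38, adjusted p = 0.0017). Within the pairs of replicates, B2m was higher in si-dnmt in each of the 4. Tapbp (0.38 ± 0.23), Erap1 (0.33 ± 0.24) and Pdia3 (0.25 ± 0.12) had adjusted p of 0.273, 0.378 and 0.168, and 0.034, 0.014 and 0.017 with the block.

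**Figure D2:**
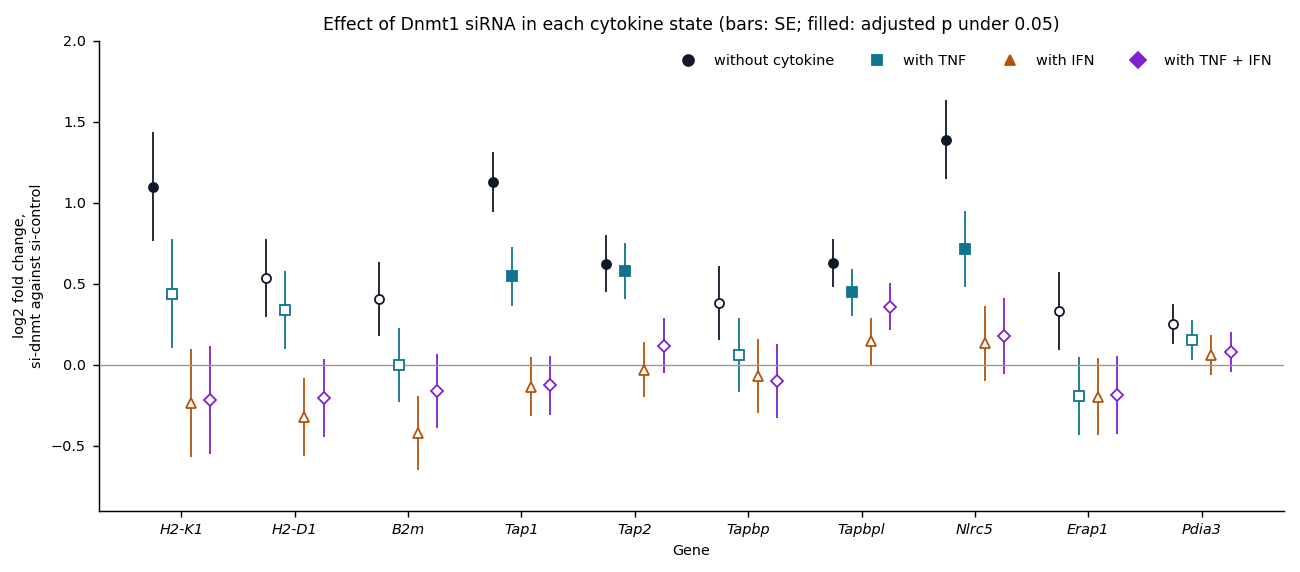
The log2 fold change of si-dnmt against si-control for each gene without cytokine and with TNF, IFN or TNF + IFN (bars: SE of the edgeR fit; filled symbols: adjusted p under 0.05). Filled symbols are seen for 5 genes without cytokine and 4 with TNF, and none with IFN or TNF + IFN.

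With TNF, si-dnmt raised 4 members, Tap1, Tap2, Tapbpl and Nlrc5, where 20% of all genes tested were called. Nlrc5 measured 127, 141, 83.7 and 103 CPM in si-dnmt + TNF against 71.2, 94.6, 56.4 and 54.5 CPM in si-control + TNF (log2 fold change 0.72 ± 0.23, adjusted p = 0.0305). Tap2 was at 105, 105, 65.6 and 64.2 CPM against 63.3, 67.5, 48.1 and 49.0 CPM (0.58 ± 0.17, adjusted p = 0.0169), and the ranges of both genes overlapped between the siRNAs. Tap1 was at 0.55 ± 0.18 (adjusted p = 0.0348) and Tapbpl at 0.45 ± 0.14 (adjusted p = 0.0283), and their libraries overlapped too. With the block 6 were called (33.4% of all genes), the added ones being H2-K1 (0.38, adjusted p = 0.009) and H2-D1 (0.32, adjusted p = 0.044). These calls depend on single libraries. None of the 4 was left when si-control + TNF replicate 3 or either of si-dnmt + TNF replicates 1 and 2 was taken out. With si-control + TNF replicate 1 out, Tap2 was left, and with replicate 4 out, Tapbpl.

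With IFN, no member was called between the siRNAs, where 20.3% of all genes tested were, and none was with TNF + IFN (17.7%). At an unadjusted p under 0.05 there were 0 and 1 members, and no share of all genes was counted at that threshold. DESeq2 called 0 members in both states, where it called 3416 and 3013 of 15254 genes. The estimates lay on both sides of 0, with medians of -0.10 and -0.11. H2-K1 measured 2427, 2672, 1311 and 1518 CPM in si-dnmt + IFN against 2963, 3272, 1381 and 1719 CPM in si-control + IFN (log2 fold change -0.24 ± 0.33, adjusted p = 0.674). Nlrc5 measured 349, 308, 211 and 240 CPM against 298, 327, 182 and 205 CPM (0.13 ± 0.23, adjusted p = 0.743). Of the 40 pairs of the same gene and replicate number, si-dnmt was the higher library in 11 with IFN and in 15 with TNF + IFN. Here too the pairs are not separate observations and were not counted over all genes. H2-K1, H2-D1, B2m, Tap1 and Erap1 were lower in si-dnmt in each of the 4 pairs with IFN, and the same genes but Tap1 with TNF + IFN, where Tapbpl and Nlrc5 were higher in each of the 4. B2m with IFN was at 3410, 3847, 2201 and 2482 CPM against 4444, 5089, 3106 and 3351 CPM (-0.42 ± 0.23, adjusted p = 0.204). With the block B2m was called (-0.43, adjusted p = 0.00043), as the 1 member called in that fit, in which 34.5% of all genes were called. With TNF + IFN, Tapbpl was at 208, 220, 200.5 and 212 CPM in si-dnmt against 198, 167, 142 and 148 CPM in si-control (0.36 ± 0.14, adjusted p = 0.082), with no overlap, and was the 1 member called with the block (0.37, adjusted p = 0.0014, 30.8% of all genes called). An adjusted p above the threshold does not show that the siRNAs gave equal levels, and the SEs of 0.12 to 0.33 leave room for differences of such a size.

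**Figure D3:**
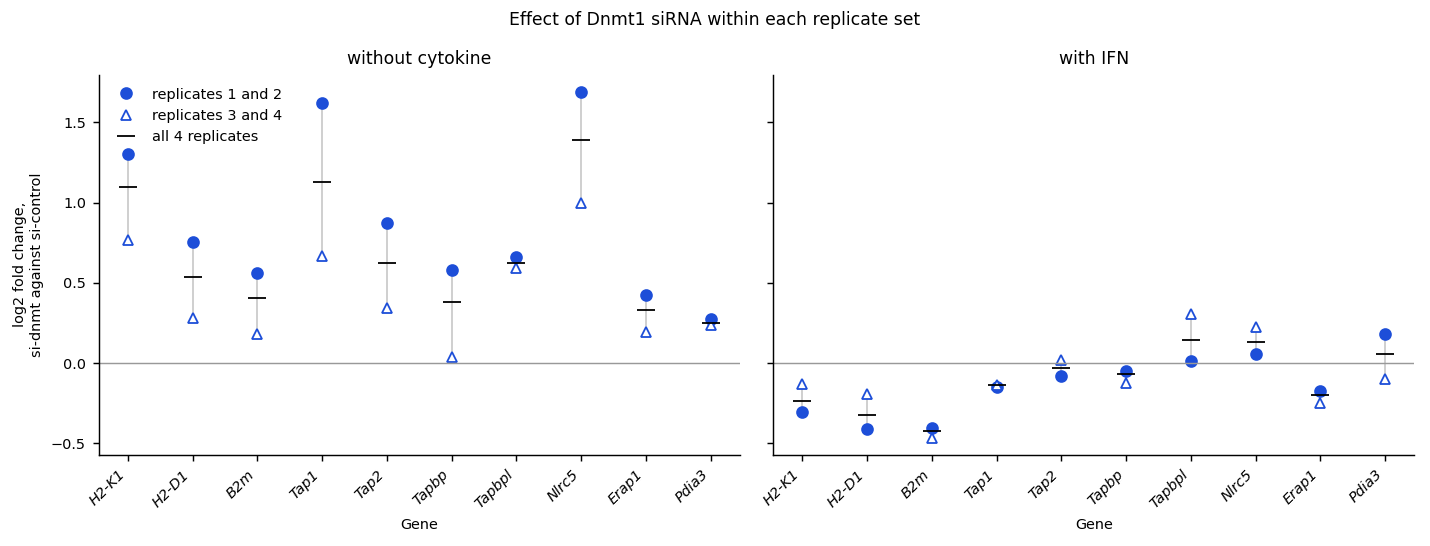
The log2 fold change of si-dnmt against si-control without cytokine (left) and with IFN (right), fitted in replicates 1 and 2 (filled circles), in replicates 3 and 4 (open triangles) and in all 4 (short lines). Without cytokine, replicates 1 and 2 give the higher value for each gene, from 1.69 against 1.00 for Nlrc5 to 0.28 against 0.24 for Pdia3.

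The size of the siRNA difference without cytokine varied with the replicate set. In replicates 1 and 2 it was 1.62 for Tap1, 1.69 for Nlrc5, 1.30 for H2-K1 and 0.88 for Tap2 on the log2 scale, and in replicates 3 and 4 it was 0.67, 1.00, 0.77 and 0.34. Tapbpl was nearly the same in both sets, at 0.66 and 0.59, and Tapbp was at 0.58 and 0.04. The direction was up in both sets for all 10 members. The set with the larger member differences was the one in which Dnmt1 itself was lowered less, as given above, and the difference between the sets was not tested.

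The third question was whether the cytokine response itself differs between the siRNAs. In si-dnmt, TNF raised 9 of 10 members (21% of all genes tested called), IFN raised 9 of 10 (9.01%, or all 10 with the block, where 19% of all genes were called and Pdia3 reached an adjusted p of 0.01) and TNF + IFN raised 10 of 10 (40.2%). The TNF calls of B2m and Erap1 in si-dnmt each needed replicates 3 and 4 of si-dnmt and replicates 1 and 2 of si-dnmt + TNF, and that of H2-D1 needed replicate 2 of si-dnmt + TNF (6 to 9 calls with 1 library left out). The median log2 fold changes were 1.07, 1.78 and 2.29, against 1.42, 2.70 and 3.04 in si-control. For Tap1 the response to IFN was 2.55 ± 0.19 in si-dnmt and 3.81 ± 0.21 in si-control, for Nlrc5 2.34 ± 0.24 and 3.60 ± 0.26, and for H2-K1 1.97 ± 0.35 and 3.30 ± 0.37. The libraries of the siRNAs overlapped with IFN for all 10 members, and without cytokine for 5 of them (B2m, Tap2, Tapbp, Erap1 and Pdia3). Overlap was not counted over all genes in either state, so this change is not shown to be particular to the members.

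**Figure D4:**
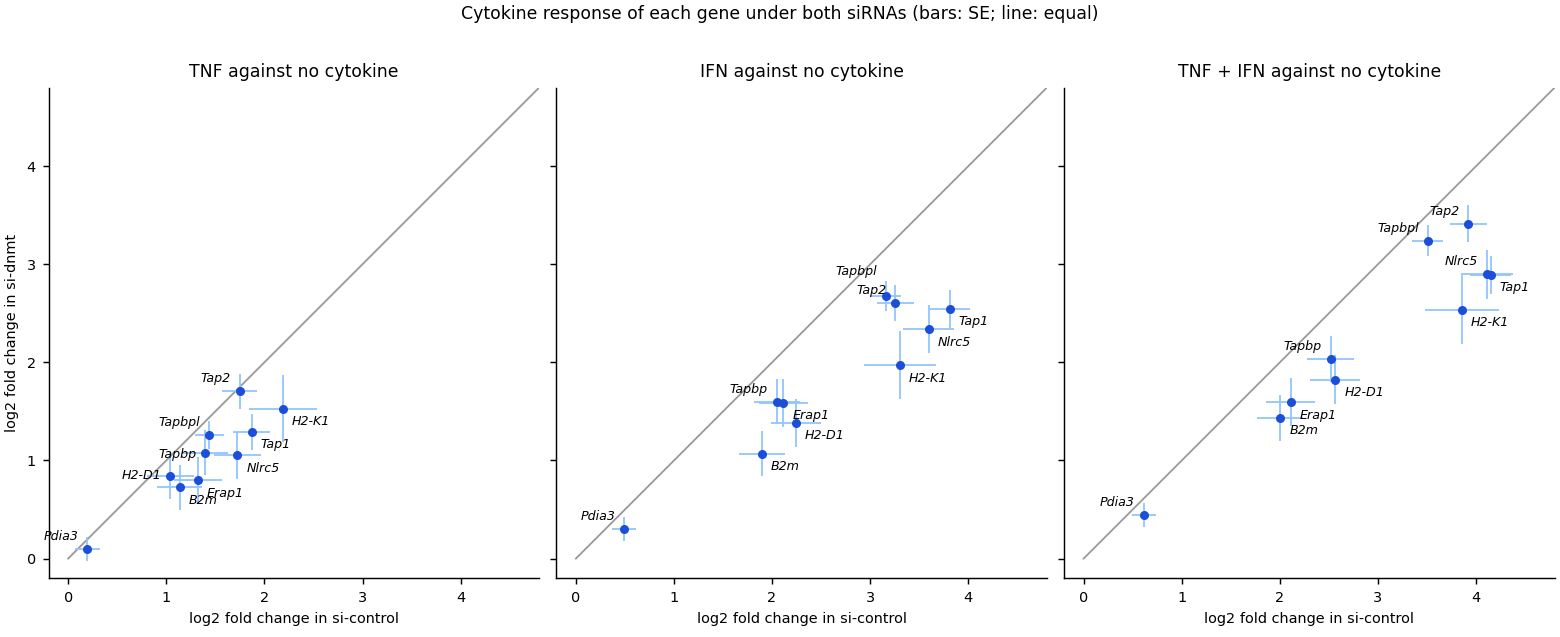
The log2 fold change of each gene with TNF, IFN or TNF + IFN in si-control (horizontal) and in si-dnmt (vertical), each against its own libraries without cytokine (bars: SE; diagonal: equal responses). All points lie below the diagonal, nearest to it for Tap2 with TNF and for Pdia3, and farthest for H2-K1, Tap1 and Nlrc5 with IFN or TNF + IFN.

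The differences between these responses were tested as interactions. All 3 use the same siRNA difference without cytokine, so they are not independent of each other. The interaction estimates were below 0 for all 10 members with each cytokine, with medians of -0.36 for TNF, -0.74 for IFN and -0.55 for TNF + IFN. For TNF, no member was called, where 0.0328% of all genes were (1 member at an unadjusted p under 0.05 and 0 by DESeq2). With the block, H2-K1 was called (-0.64, adjusted p = 0.042, 0.892% of all genes called). For IFN, no member was called (0.0459% of all genes). At an unadjusted p under 0.05 there were 7 members. No share of all genes was counted at that threshold, so this count is not shown to be particular to the members. DESeq2 called Tap1, where it called 32 of 15254 genes. Tap1 was at -1.26 ± 0.26 (adjusted p = 0.0594), Nlrc5 at -1.26 ± 0.33 (adjusted p = 0.356) and H2-K1 at -1.34 ± 0.48 (adjusted p = 1.00). With the block 5 members were called lower, H2-K1, H2-D1, B2m, Tap1 and Nlrc5 (-0.79 to -1.24, adjusted p from 3.9e-05 to 0.025), where 0.387% of all genes were called. In replicates 1 and 2 the interaction was -1.77 for Tap1, -1.63 for Nlrc5 and -1.61 for H2-K1, and in replicates 3 and 4 it was -0.81, -0.77 and -0.90.

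For TNF + IFN, Tap1 was the 1 member called (0.531% of all genes), with an interaction of -1.26 ± 0.26 (adjusted p = 0.0196). TNF + IFN raised Tap1 by 4.15 on the log2 scale in si-control and by 2.89 in si-dnmt. This call was lost without si-control replicate 1 or without si-dnmt + TNF + IFN replicate 4. With the block 6 members were called lower, H2-K1, H2-D1, B2m, Tap1, Nlrc5 and Erap1 (-0.53 to -1.22, adjusted p from 2.2e-05 to 0.023), where 4.18% of all genes were called. Tap2, Tapbp, Tapbpl and Pdia3 were not called in either fit, at -0.51 ± 0.24, -0.48 ± 0.32, -0.27 ± 0.21 and -0.17 ± 0.18.

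The last question was what TNF adds where IFN is present. Against IFN alone, TNF + IFN raised only Tap2 in si-control (29.1% of all genes tested called), and Tap2 and Tapbpl in si-dnmt (23.6%). Tap2 measured 297, 269, 228 and 234 CPM with both cytokines against 181, 190, 132 and 145 CPM with IFN in si-control (log2 fold change 0.67 ± 0.17, adjusted p = 0.00385). In si-dnmt it was at 274, 314, 256 and 270 CPM against 172, 180, 136 and 146 CPM (0.81 ± 0.17, adjusted p = 0.000743), and its libraries were apart under both siRNAs. Tapbpl in si-dnmt was at 200.5 to 220 CPM against 122 to 161 CPM (0.56 ± 0.14, adjusted p = 0.00411). Erap1 moved by 0.00 ± 0.24 in si-control and by 0.01 ± 0.24 in si-dnmt. With the block, 6 members were called in si-control (41.9% of all genes), adding H2-K1 (0.56), H2-D1 (0.33), Tapbp (0.49), Tapbpl (0.36) and Nlrc5 (0.52) with adjusted p from 0.00016 to 0.03. In si-dnmt 7 were called with the block (35.9% of all genes), adding H2-K1 (0.58), H2-D1 (0.45), B2m (0.37), Tapbp (0.46) and Nlrc5 (0.57) with adjusted p from 0.00011 to 0.0045.

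**Figure D5:**
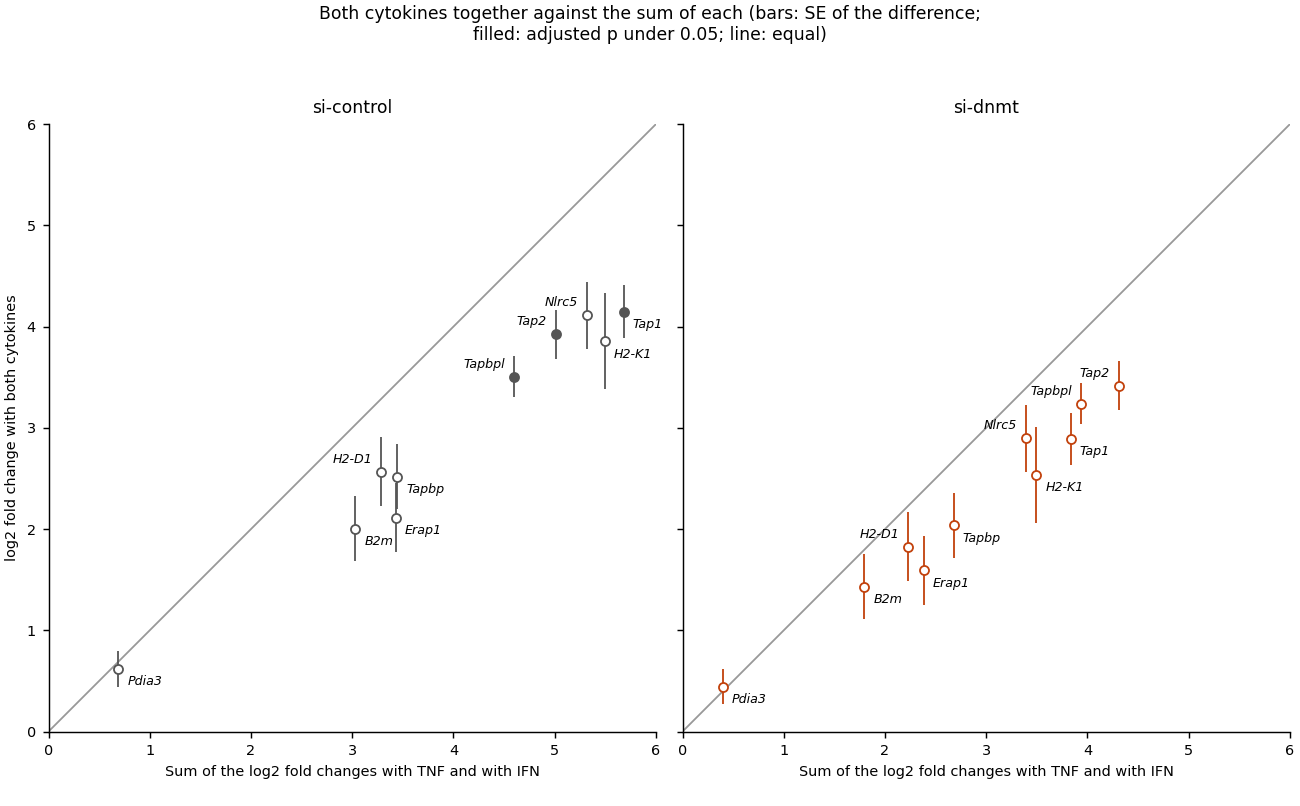
The log2 fold change with both cytokines (vertical) against the sum of the log2 fold changes with TNF and with IFN (horizontal) for each gene in si-control (left) and si-dnmt (right) (bars: SE of the difference; filled: adjusted p under 0.05; diagonal: equal). In si-control every gene lies below the diagonal, from 0.07 for Pdia3 to 1.64 for H2-K1, and Tap1, Tap2 and Tapbpl are filled.

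If each cytokine multiplied expression by the same factor with or without the other, log2 responses would add. In si-control all 10 members fell short of that sum, by a median of 1.09 on the log2 scale. The TNF-by-IFN interaction was called lower for 3 of them, where 1.06% of all genes were called in either direction. For Tap1 the responses to TNF (1.87) and IFN (3.81) sum to 5.68, and the response to both was 4.15, a difference of -1.54 ± 0.26 (adjusted p = 0.00117). Tapbpl fell short by 1.09 (interaction -1.09 ± 0.21, adjusted p = 0.00332), and Tap2 had an interaction of -1.08 ± 0.24 (adjusted p = 0.0182), a call that was lost without si-control, si-control + TNF or si-control + IFN replicate 2 or without si-control + IFN replicate 1. H2-K1 had the lowest estimate but a wide error (-1.64 ± 0.48, adjusted p = 0.109). With the block 9 members were called, all but Pdia3 (4.23% of all genes), with H2-K1 at -1.61 (adjusted p = 5.3e-08) and Erap1 at -1.34 (adjusted p = 1e-07). Replicates 1 and 2 gave -2.05 for Tap1, -1.39 for Tap2 and -1.73 for H2-K1, and replicates 3 and 4 gave -1.06, -0.75 and -1.51. In si-dnmt 9 of 10 estimates were below 0, with a median of -0.67, and none was called, where 0.354% of all genes were. At an unadjusted p under 0.05 there were 4 members, and no share of all genes was counted at that threshold. DESeq2 called 0 members and 96 of 15254 genes. With the block 6 were called in si-dnmt, H2-K1, Tap1, Tap2, Tapbp, Tapbpl and Erap1 (-0.66 to -0.94, adjusted p from 0.00056 to 0.037), where 1.82% of all genes were called.

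Genes that act before and beside the loading step were taken from a list of 20, of which 19 were tested. Of these, 9 rose and 3 fell with TNF in si-control, 10 rose and 0 fell with IFN, and 11 rose and 1 fell with TNF + IFN, where 30.8%, 14.5% and 45.2% of all genes tested were called in either direction. The median log2 fold changes of the list were 0.24, 0.32 and 0.41, so most of the list moved little beside the members. The immunoproteasome subunits led in each: Psmb9 went from 3.22 to 156 CPM with IFN (log2 fold change 5.59 ± 0.22), Psmb8 from 13.1 to 211 CPM (4.01 ± 0.29) and Psmb10 from 30.3 to 233 CPM (2.94 ± 0.18). Psmb9 lies beside Tap1 and shares 3.87% of its exon length. Without cytokine, si-dnmt raised 8 of the list and lowered 0 (18.5% of all genes called), led by Psmb9 (from 3.22 to 9.18 CPM, 1.498 ± 0.20, adjusted p = 4.3e-06), Psmb8 (1.03 ± 0.26, adjusted p = 0.00647) and Psmb10 (0.59 ± 0.17, adjusted p = 0.0136). With TNF 3 were raised, with IFN 2, Calr (0.34 ± 0.10) and Hspa5 (0.30 ± 0.09), and with TNF + IFN 1, Blmh (0.25 ± 0.07), and these 3 counts of the 19 are below the shares of all genes called (20%, 20.3% and 17.7%). Psmb9 was called lower in the siRNA interactions, at -1.86 ± 0.26 for IFN (adjusted p = 0.000664) and -1.62 ± 0.26 for both cytokines (adjusted p = 0.00202).

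The list of transcriptional regulators of class I held 14 genes, all tested. In si-control, 7 rose and 0 fell with TNF, 7 rose and 1 fell with IFN, and 9 rose and 2 fell with TNF + IFN, beside 30.8%, 14.5% and 45.2% of all genes called. The medians were 0.30, 0.25 and 0.75. Irf1 went from 35.8 CPM to 145 CPM with TNF (log2 fold change 2.02 ± 0.15), 753 CPM with IFN (4.397 ± 0.16) and 1077 CPM with both (4.91 ± 0.17). Irf8 went from 34.2 to 362 CPM with IFN (3.40 ± 0.41). Ciita, the class II transactivator, was near 0 without cytokine, at a mean of 0.0875 CPM, and at 185 CPM with IFN. With TNF it was at 2.53 CPM in si-dnmt and 0.630 CPM in si-control (2.01 ± 0.72, adjusted p = 0.0484). Without cytokine si-dnmt raised 4 and lowered 3 of the 14 (18.5% of all genes called), among them Irf1 (from 35.8 to 50.9 CPM, 0.51 ± 0.14, adjusted p = 0.0127), which was higher, and Rfxap, a subunit of the RFX complex that binds class I promoters, which was lower (from 10.4 to 6.204 CPM, -0.75 ± 0.17, adjusted p = 0.00196). Rfxap was lower in si-dnmt in the other 3 states as well (-0.65, -0.70 and -0.81). Irf1 was called lower in the TNF-by-IFN interaction in si-control (-1.499 ± 0.20).

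The group means of the members followed each other closely. Pearson's r of each member with the mean of all 10 over the 8 group means of log2 CPM was 0.997 for Tap1, 0.996 for Tap2 and H2-D1, 0.991 for Tapbpl, 0.990 for Nlrc5, 0.989 for H2-K1 and Tapbp, 0.983 for B2m, 0.974 for Erap1 and 0.960 for Pdia3. These values describe 8 groups that share libraries' depth and treatment, and each member is part of the mean. Group means of Pdia3 spanned 0.67 on the log2 scale, where those of Nlrc5 spanned 4.27. Outside the members and both lists, the genes whose group means were most like those of the members were Fbxw17 (r = 0.9965), Ubd (0.9962), H2-T22 (0.9958), Gbp5 (0.9955) and Gbp3 (0.9954), of 6278 genes compared. Over these groups Ubd spanned 12.9 on the log2 scale and Fbxw17 1.56, so likeness of pattern did not mean likeness of size.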

How the data were processed

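The authors deposited 1 table of counts per library, made with featureCounts per the labels from trimmed reads (cutadapt 4.9 is listed in the submitters' processing notes), and a merged table by symbol. The deposited counts are whole and not normalized. Set against the per-library tables, the merged table differed in 0 cells once identifiers of one symbol were added up. The aligner, genome build, strand setting and annotation (not given in the sources used here) are unknown, so reads of overlapping or antisense genes cannot be told apart.

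From the per-library counts (54532 identifiers), 15254 genes were kept by filterByExpr of edgeR with min.count 10. All 32 libraries were fitted with 8 group means by edgeR 4.0.16 (R 4.3.3, TMM factors 0.88 to 1.09), and 17 contrasts were put to its quasi-likelihood F test (two-sided), with p-values adjusted over all genes tested by Benjamini-Hochberg and a threshold of 0.05. The SE of a log2 fold change is its size divided by the square root of F. The fit was tested on simulated data drawn without a difference between replicate sets, so that test does not cover the split seen here. The study calls the libraries biological replicates without naming separate cultures, so p-values measure the spread between these libraries, which may be technical. The members and lists were chosen with earlier results of these data known.

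Replicate numbers come from the labels. Same-numbered libraries deviated together from their group means in 112 of 112 pairs (correlation 0.297 to 0.617, median 0.415), and the numbers were taken to pair the libraries. The correlation was as high between the 2 numbers of a set (1 with 2, 3 with 4; median 0.409) and negative across sets (median -0.41). These values therefore show 2 sets and do not tell 4 separate pairs from them. Pairing by number rests on the labels, and the 4 pairs may not be independent of each other.

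Genes named are the 10 members and Dnmt1, up to 3 called genes of each list (20 processing and 14 regulator genes) with the largest change in a contrast described, and the 5 genes most like the members over the 8 group means of log2 CPM (prior count 2). Ratios between members were added after the values were seen. Alternatives were DESeq2 1.42.0, RLE factors, library totals alone, no low-count filter, the replicate number as a block, each replicate set alone, only the groups compared, and each library left out in turn. Promoter windows are RefSeq's on GRCm38.p6 (7 of 10 members matched), and exon lengths are unions over GENCODE M21. Some results for the regulator genes are not reported here.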

Additional observations from a re-analysis of the deposited data

Results flagged for a closer look

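The interaction of the siRNA with TNF + IFN differed from 0 for Tap1, at -1.26 on the log2 scale: TNF + IFN raised Tap1 more in si-control than in si-dnmt. The response to TNF differed with the presence of IFN in si-control for Tap1 (-1.54), Tap2 (-1.08) and Tapbpl (-1.09). No library of the 80 combinations of gene and group stood far enough from the other 3 to be noted. Chance alone gives about 1 in 20, but that rate is for libraries without a split. The replicate sets did not overlap in at least 72 of the 80 combinations. A single library can hardly stand out within such a split, so the check cannot show that no library deviated.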

How the results depend on the processing

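The members raised by TNF, IFN or TNF + IFN under either siRNA numbered within 1.5 times the counts given under every alternative, with 6 to 9 called for TNF in si-dnmt when 1 library was left out. The other counts moved. The shares of all genes called with the replicate number as a block are given with the results. For TNF + IFN against IFN in si-control (1 called), 6 were called with the block. Replicates 1 and 2 gave 5 (5318 of 15366 genes), replicates 3 and 4 gave 7 (6026 of 15184), and fits without single libraries gave 1 to 3. In si-dnmt (2 called) the block gave 7, replicates 1 and 2 gave 7 (5004 of 15366 genes) and replicates 3 and 4 gave 8 (4687 of 15184). For si-dnmt against si-control without cytokine (5 called), 10 were called with the block (4941 of 15254 genes) and 10 in replicates 1 and 2 (3674 of 15366). With TNF (4 called), 2 were called without the low-count filter, 1 with only the groups compared (2308 of 13806 genes) and 0 to 4 without single libraries. In replicates 3 and 4 alone, 4 were higher and 1 lower with TNF (5521 of 15184 genes called). With IFN (0 called), 1 was lower with the block and 2 were lower in replicates 1 and 2 (3877 of 15366 genes called). In replicates 3 and 4, 3 were called (1 higher, 2 lower, 5853 of 15184 genes called). With TNF + IFN (0 called), 1 was called with library totals only (2862 of 15254 genes) and 1 with the block. In replicates 3 and 4, 4 were called (2 higher, 2 lower, 5497 of 15184 genes called). With only the groups compared 1 was called (2255 of 13461 genes), and without single libraries 0 to 1. The siRNA interaction with TNF (0 called) gave 1 with the block. It gave 3 in replicates 1 and 2 (303 of 15366 genes) and 2 in replicates 3 and 4 (1221 of 15184). With IFN (0 called) it gave 1 by DESeq2, with RLE factors and with library totals only (32, 14 and 13 of 15254 genes). It also gave 1 without the filter (12 of 33542). The block gave 5, replicates 1 and 2 gave 9 (276 of 15366), and replicates 3 and 4 gave 4 (154 of 15184). Without single libraries 0 to 1 were called. The siRNA interaction with TNF + IFN (1 called) gave 2 by DESeq2 (179 of 15254 genes) and 6 with the block. Replicates 1 and 2 gave 8 (747 of 15366), replicates 3 and 4 gave 6 (1795 of 15184), and fits without single libraries gave 0 to 1. The TNF-by-IFN interaction in si-control (3 called) gave 6 by DESeq2 and 5 with library totals only (282 and 204 of 15254 genes). The block gave 9, replicates 1 and 2 gave 9 (1632 of 15366), and replicates 3 and 4 gave 8 (661 of 15184). In si-dnmt (0 called) the block gave 6 and replicates 1 and 2 gave 6 (737 of 15366). There replicates 3 and 4 gave 7 (318 of 15184), and only the groups compared gave 1 (122 of 14657). The block changed no other call than those given with the results. Counts over all genes moved too. Between the siRNAs without cytokine, 3674 of 15366 genes were called in replicates 1 and 2 and 2816 of 15254 in the main fit. With TNF, 2174 of 33542 were called without the filter and 3050 of 15254 in the main fit. In replicates 3 and 4, TNF + IFN against IFN in si-control called 6026 of 15184 (main fit 4439). The siRNA interaction with TNF + IFN called 1795 of 15184 there (main fit 81). The cause of these moves was not tested.

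Values near 0 changed sign, and no called value did. In replicates 3 and 4 alone these were Pdia3 with TNF in si-dnmt (-0.0037), Erap1 for TNF + IFN against IFN in si-control (0.17), and between the siRNAs B2m (-0.15) and Tapbp (-0.19) with TNF, Tap2 (0.022) and Pdia3 (-0.10) with IFN and Pdia3 with TNF + IFN (-0.13), as well as Tap2 in the siRNA interaction with TNF (0.078). With the block, Erap1 for TNF + IFN against IFN in si-control was at 0.026 and B2m between the siRNAs with TNF at -0.023. Without the filter these 2 were at 0.0103 and -0.00239. With library totals only, Erap1 for TNF + IFN against IFN in si-dnmt was at -0.089, Tap2 and Tapbp between the siRNAs with IFN at 0.064 and 0.022, and Pdia3 in the TNF-by-IFN interaction in si-dnmt at -0.047. With replicates 1 and 2 alone the same Erap1 value was at -0.015, and with only the groups compared at -0.012, where B2m between the siRNAs with TNF was at -0.015. Without single libraries, values ran from -0.00497 to 0.26 for B2m and -0.11 to 0.13 for Erap1 (TNF + IFN against IFN in si-control), from -0.11 to 0.15 for Erap1 (in si-dnmt), from -0.12 to 0.11 for B2m and -0.078 to 0.17 for Tapbp (siRNAs with TNF), from -0.12 to 0.050 for Tap2, -0.18 to 0.044 for Tapbp, -0.0026 to 0.27 for Nlrc5 and -0.020 to 0.13 for Pdia3 (with IFN), from -0.026 to 0.18 for Pdia3 (with TNF + IFN), from -0.16 to 0.068 for Tap2 (siRNA by TNF) and from -0.064 to 0.14 for Pdia3 (TNF by IFN in si-dnmt). Library totals only moved the median of all genes by up to -0.18 on the log2 scale, in the contrasts of TNF + IFN against no cytokine.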
